A study of Homo sapiens with 21 samples.

Results

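The comparison of day 20 (d20) with day 15 (d15) of TGFβ treatment comes from a time course of HMLE cells, an established line of human mammary epithelial cells immortalized with the catalytic subunit of telomerase (TERT) and the SV40 early region. It sets the 3 d20 libraries against the 3 d15 libraries, 6 of the 21 libraries of the series, over the genes whose mean value in these 6 libraries was at least 10. This rule took in 13370 of the 23201 gene symbols in the table (57.6%). MYB and TCTEX1D4 lay just outside it, both with a mean of 9.98, and GPR162 and ARMCX5-GPRASP2 just inside it, with means of 10.005 and 10.007. Both groups were the same line under the same cytokine, and they differed in the time of treatment, 15 or 20 days. Any difference between the days in culture state, passage or processing cannot be told apart from the time of treatment. Untreated cells (d0) and cells on day 10 (d10), with 3 libraries each, were used to place the d20 level. All libraries came from 1 line, seeded at an equal density at every timepoint. The study calls the 3 libraries of a day biological triplicates, and neither the labels nor its methods say whether they came from separate cultures, so p-values measure the spread between these libraries, which may be technical.

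TGFβ is a cytokine that drives epithelial cells into epithelial to mesenchymal transition (EMT) and, in most epithelia, also slows their division. Its cytostatic arm acts through CDK inhibitors such as CDKN2B (p15) and CDKN1A (p21) and through lower MYC, which keep the retinoblastoma family of pocket proteins bound to E2F transcription factors. When CDKs become active the E2F genes of DNA replication are released first, and the genes of mitosis follow through MYBL2 and FOXM1. The SV40 large T antigen carried by HMLE binds the pocket proteins, so the line starts with part of this brake already loosened.

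The unit throughout is the normalised read count, the reads of a gene divided by 1 size factor for the library. Multiplied back by that factor, the values gave 19845160 to 22667754 reads for each d15 library and 19935676 to 21720711 for each d20 library. Between 2 libraries of a day the root mean square log2 difference over the genes was 0.209 to 0.242 (6 pairs), and between a d15 and a d20 library it was 0.791 to 0.814 (9 pairs). The summed value of 8 basal mammary markers ranged from 502600 to 520900 on d15 and from 345600 to 351700 on d20 (1 higher, 6 lower). Of 12 luminal markers 5 passed the filter (2 higher, 3 lower), and PGR and KIT had no read in any of the 6 libraries. The luminal sum was 16330 to 16580 on d15 and 13120 to 13530 on d20. Most of it was KRT8, with means of 11259 on d15 and 7818 on d20, while KRT18 rose from 4359.5 to 4872.3. The blood cell sum of 769.7 to 814.2 on d15 and 666.7 to 709.9 on d20 was almost all CD68, and the leukocyte marker PTPRC was at or near 0. Of 5 adipocyte markers 2 passed the filter (summed value 91.35 to 107.1 on d15 and up to 135.8 on d20), and of 5 markers of neurons and glia 1 did (656.9 to 739.6 and 742 to 778.5). In RNA from whole cultures, fewer cells of a kind and less RNA per cell cannot be told apart.

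Genes were compared by limma on log2(value + 1), and a gene was called at an adjusted p under 0.05 (Benjamini-Hochberg over the 13370 genes, from here on the adjusted p). By this rule 5247 genes (39.2%) were higher and 5222 (39.1%) lower on d20 than on d15. With a change of at least 2-fold as well, 1013 (7.58%) were higher and 1061 (7.94%) lower, and at least 4-fold changes numbered 160 and 209. The median log2 fold change over all genes was -0.004. Since 2901 genes passed in neither direction, a call alone sets a gene little apart. The counts in the lists of genes below are to be read against these shares and the median.

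Genes of the cell cycle were higher on d20. MKI67, the nuclear antigen used to mark cycling cells, was at 3385, 3226 and 3261 on d15 and 11872, 12183 and 12311 on d20 (3.68-fold, log2 fold change 1.88 ± 0.028 (SE), limma, adjusted p = 3.9e-32). Every d20 library lay far above every d15 library, with little spread within either day. The 4 lists of cell-cycle genes held 122 genes that passed the filter, and 121 of them were higher on d20, 107 by at least 2-fold, with a median log2 fold change of 1.57. No member was lower, also with edgeR, with DESeq2 or at an unadjusted p under 0.05. The exception was CCNE1, a cyclin of the G1 to S boundary, at 106, 91.3 and 89.1 on d15 and 83.7, 77.9 and 90.1 on d20 (log2 fold change -0.18 ± 0.13 (SE), limma, adjusted p = 0.196).

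Replication licensing and initiation, the loading of the MCM helicase on origins and its activation by CDC45 and the GINS complex, rose in 22 of 22 genes (19 by at least 2-fold, median log2 fold change 1.80, from 0.71 for TOPBP1 to 3.15 for MCM10). MCM2, a subunit of the helicase, was at 696, 664 and 658 on d15 and 2709, 2828 and 2776 on d20 (log2 fold change 2.04 ± 0.039 (SE), limma, adjusted p = 2.71e-29). CDC6, which loads the helicase, was at 281, 260.5 and 285 on d15 and 1379, 1591 and 1567 on d20 (log2 fold change 2.45 ± 0.057 (SE), limma, adjusted p = 3.74e-27). The groups did not overlap for either gene, and the fold was larger for CDC6 than for MCM2. MCM10, which helps to start unwinding, was at 67.3, 78.7 and 69.4 on d15 and 615, 666 and 648 on d20, higher by 8.86-fold (log2 fold change 3.15 ± 0.087 (SE)). GINS4 and GINS2 followed it with log2 fold changes of 2.87 and 2.60, and the helicase subunit MCM5 had 1.99. CDT1 and its inhibitor were at the lower end: geminin (GMNN) had a log2 fold change of 0.91 and CDT1 itself 0.95, named here after their values were seen.

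Fork and nucleotide supply genes, which copy the DNA and make its precursors, rose in 30 of 30 (25 by at least 2-fold, median 1.51, from 0.46 for TIPIN). RRM2, the regulated subunit of ribonucleotide reductase, was at 779, 800.5 and 849 on d15 and 7484, 7350.3 and 7607 on d20 (9.23-fold, log2 fold change 3.21 ± 0.035 (SE), limma, adjusted p = 9.58e-36). The d20 libraries were all far above those of d15. FEN1, which trims Okazaki fragments, had a log2 fold change of 2.86, and PCNA, the sliding clamp of the fork, one of 1.15 (1214, 1304 and 1250.3 on d15 and 2752, 2770.1 and 2854 on d20).

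Of 20 cyclins, CDKs and transcription factors of the cycle 19 rose, 14 by at least 2-fold (median 1.34). E2F1, an activator of the replication genes and itself an E2F target, was at 49.98, 69.6 and 70.4 on d15 and 450.5, 484 and 439 on d20 (7.21-fold, log2 fold change 2.85 ± 0.11 (SE), limma, adjusted p = 2.77e-21). MYBL2, which joins the MuvB complex to switch on mitotic genes, was at 653, 632 and 571 on d15 and 2634, 2608 and 2701 on d20 (log2 fold change 2.10 ± 0.044 (SE)). The days did not overlap for either factor. E2F2 (1.95), CCNA2 (1.83), CCNE2 (1.62) and CDK1 (1.54) also rose, these numbers being log2 fold changes. FOXM1, the forkhead factor of late G2 genes, rose by 1.02 on the same scale, below the median of the list, from 2902 to 5888 in mean value. CCNB1, the cyclin of mitotic entry, was at 2191, 2192 and 2284 on d15 and 8003, 7995 and 8022 on d20 (3.6-fold, log2 fold change 1.85 ± 0.029 (SE), limma, adjusted p = 1.81e-31).

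All 50 kinetochore, spindle and mitotic exit genes were higher, 49 by at least 2-fold, in a narrow range from 0.98 for HMMR to 2.39 for SPC25 (median log2 fold change 1.56). SPC25 and SPC24, a pair of subunits of the NDC80 complex that holds microtubules at the kinetochore, led with 2.39 and 2.35. DLGAP5, a spindle protein, was at 825, 833 and 849 on d15 and 3744, 3796 and 3969 on d20 (log2 fold change 2.20 ± 0.036 (SE)). PLK1, the kinase of mitotic entry and exit, was at 1489, 1446 and 1456 on d15 and 3853, 4029.8 and 4048 on d20 (log2 fold change 1.44 ± 0.034 (SE), limma, adjusted p = 3.38e-27). CDC20, which activates the anaphase-promoting complex, was at 3336, 3211 and 3381 on d15 and 8228, 8338 and 7989 on d20 (log2 fold change 1.31 ± 0.029 (SE)). The groups of these genes stood apart in each case. AURKA, a spindle pole kinase, and TOP2A, the topoisomerase that untangles sister chromatids, rose by 1.38 and 1.22 on the log2 scale.

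**Figure D1:**
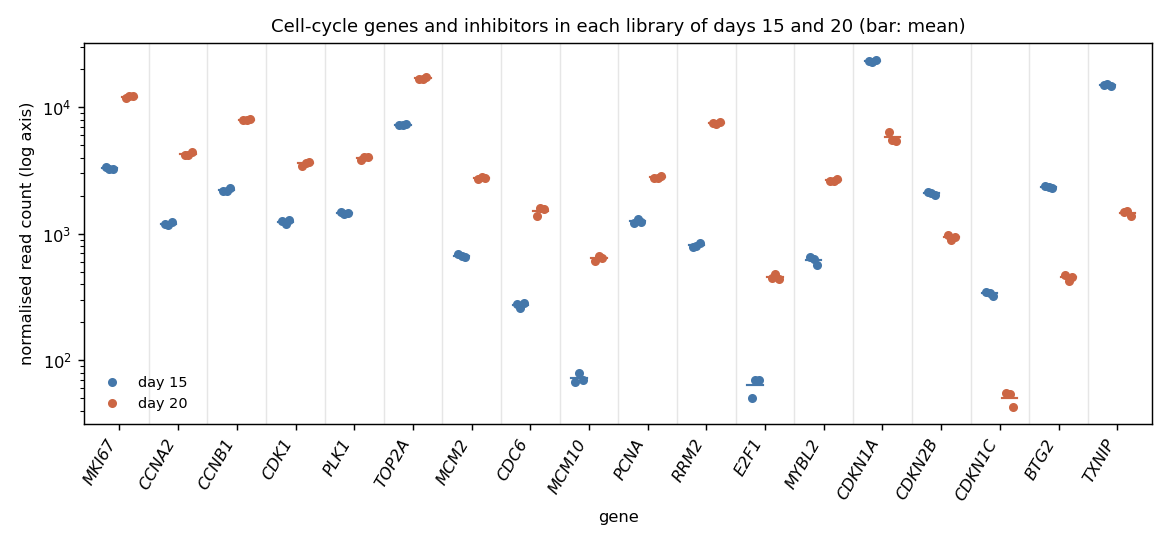
Normalised read count (log axis) of 18 genes in each library of day 15 (blue) and day 20 (orange), with short bars for the mean of 3 libraries. The 13 genes from MKI67 to MYBL2 are higher in every day 20 library and the 5 from CDKN1A to TXNIP lower, with no overlap between days.

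A further list of 22 genes mixed CDK inhibitors and antiproliferative genes, which hold the cycle, with D cyclins and MYC, which drive it. Of these 22, 18 were lower, 5 by at least 2-fold, and 3 higher (median log2 fold change -0.68). The 18 included the drivers MYC and CCND2. CDKN1A, the inhibitor p21, was at 23139.9, 22797 and 23650.4 on d15 and 6418, 5529 and 5456 on d20, 4.01-fold lower (limma, adjusted p = 9.1e-30). The d20 values were above its d0 mean of 1812 and its d10 mean of 2742. CDKN2B, the inhibitor p15 and a direct TGFβ target, was at 2135, 2092 and 2021 on d15 and 977, 898 and 941 on d20 (log2 fold change -1.15 ± 0.041 (SE)). CDKN1C, the inhibitor p57, was at 349, 342 and 321 on d15 and 55.1, 53.7 and 43.1 on d20 (6.59-fold lower, log2 fold change -2.72 ± 0.112 (SE), limma, adjusted p = 1.85e-20). BTG2, an antiproliferative gene, was at 2388, 2329.9 and 2286 on d15 and 476, 424 and 458 on d20 (log2 fold change -2.37 ± 0.046 (SE)). No d20 library of these 4 genes reached a d15 library. CDKN1B (p27) fell by 0.58 and CCND2 by 0.78 on the log2 scale.

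The 3 that rose were CDKN2C, the INK4 inhibitor p18, at 442, 463 and 490.0 on d15 and 1042, 1030.3 and 1005 on d20 (log2 fold change 1.14 ± 0.052 (SE)), CCND1 (0.66) and CCND3 (0.11), whose call was lost without d20 library 2, with all 21 libraries in the fit and under both other scalings. MYC, a driver of growth that TGFβ lowers in many epithelia, was at 5571, 5307 and 5439 on d15 and 2727, 3045 and 2430.4 on d20 (limma, adjusted p = 2.07e-19). MYC was thus lower on d20 in all 3 libraries, the opposite direction to the replication genes. The gene not called was CDKN2A, with a log2 fold change of 0.05.

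The list of FOXO and quiescence genes held 18 genes, of which 16 passed the filter and 15 were lower, 7 by at least 2-fold (median -0.92). None was higher with limma, edgeR or DESeq2, or at an unadjusted p under 0.05. TXNIP, an inhibitor of glucose uptake and of thioredoxin, was at 15025, 15294 and 14824 on d15 and 1487, 1503 and 1390.5 on d20, 10.3-fold lower (log2 fold change -3.37 ± 0.031 (SE), limma, adjusted p = 1.02e-37). FOXO1, the forkhead factor of quiescent cells, was at 1049, 991 and 919.9 on d15 and 158, 102 and 121 on d20 (log2 fold change -2.97 ± 0.095 (SE)), and BCL6, a repressor, fell by 2.00. The days were far apart for TXNIP and FOXO1, and the d20 mean of TXNIP was close to its d0 mean of 1483 (limma, adjusted p = 0.923 for d20 against d0, log2 difference 0.01) and above its d10 mean of 518 (log2 difference 1.49). KLF6 was not called, and PDK4 and SEPP1 were below the filter.

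Where the d20 level stood in the course was read from the other days, which share the d20 libraries with the comparison above and are set beside it. Over all genes tested 3617 (27.1%) were higher and 4009 (30%) lower on d20 than on d10, and 4701 (35.2%) were higher and 4368 (32.7%) lower than on d0. For 119 of the 122 cell-cycle genes d15 had the lowest mean of the 7 days, against 3380 of all 13370 genes tested. For 33 of the 122 d20 had the highest, against 1244 of all genes. The median log2 difference of the 122 cell-cycle genes from d15 was 1.61 on d0, 1.41 on d1, 0.95 on d4, 1.17 on d7, 1.54 on d10 and 1.57 on d20. The 22 licensing genes were all lower on d20 than on d10 (median log2 difference -0.39), and 17 were lower than on d0 (median -0.24). Of the 30 fork genes 23 were lower and 1 higher than on d10 (median -0.29), and 18 were lower and 8 higher than on d0 (median -0.20). The mitotic list went the other way against d10, with 32 of 50 higher and 3 lower (median 0.13), and split against d0, with 16 higher and 12 lower (median 0.01). The cyclin list gave 6 higher and 9 lower than d10 (median -0.11) and 6 higher and 10 lower than d0 (median -0.10).

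The order against d0 depended on the scaling. The summed values were 18266631 to 18648067 on d0 and 21131079 to 21269281 on d20. With every library rescaled to the same total, the median of all genes against d0 moved to -0.19, the mitotic median was also -0.19, and 1 mitotic gene was higher and 34 lower than on d0. With quantile normalization 6 were higher and 30 lower. Cyclin genes higher than on d0 numbered 1 under either scaling and 3 with all 21 libraries in the fit, which also gave 8 mitotic genes higher and 3 lower, and 4 fork genes were higher with equal totals. The count of mitotic genes above d10 was 15 with all 21 libraries in the fit, in place of 32. MKI67 had a mean of 12122 on d20, 11288 on d10 and 10671 on d0, and RRM2 7480.4, 7685 and 5216. E2F1 was lower on d20 than on d10 (means 458 and 727, log2 difference -0.67, limma, adjusted p = 1.63e-13). In the list of CDK inhibitors, D cyclins, MYC and antiproliferative genes, d15 had the highest mean of the 7 days for 12 of 22. The same held for 11 of the 16 FOXO genes tested, and for 3207 of all 13370 genes. On d20, 18 of the 22 genes of the former list were higher and 4 lower than on d10 (median 0.33). Against d0, 11 of them were higher and 7 lower (median 0.11, and -0.09 with equal totals). Of the FOXO genes 13 were higher and 2 lower than on d10 (median 0.48), and 4 were higher and 9 lower than on d0 (median -0.34). The d7 libraries of MKI67 ranged from 6834 to 11850.1 and those of CDKN1A from 4839.8 to 22956, wider than on d15 or d20. Within d7 alone CDKN1A thus ran from below its d20 mean of 5801 to near its d15 mean of 23196.

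**Figure D2:**
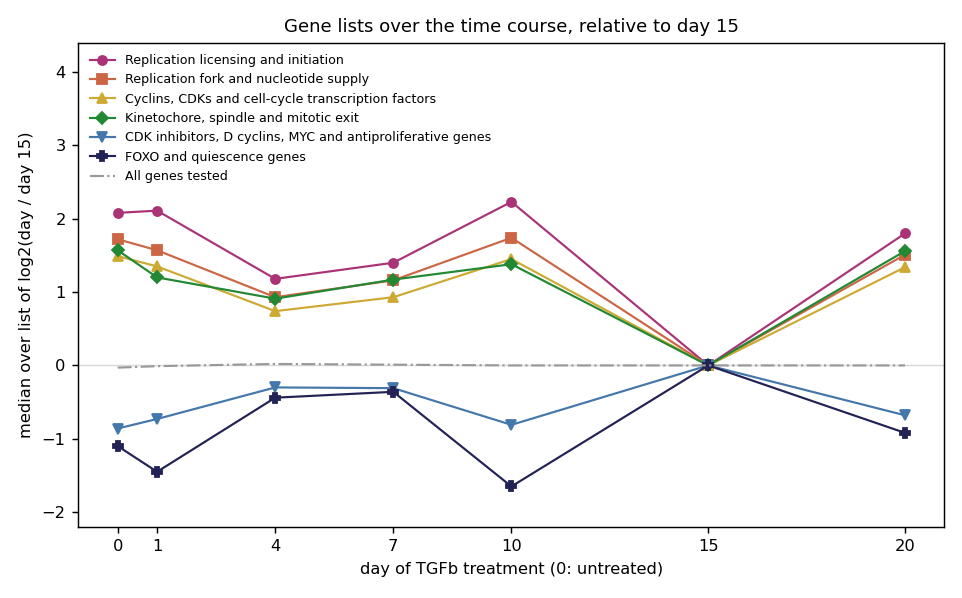
Median over the genes of each list of the log2 ratio of a day's mean to that of day 15, against the day of TGFβ treatment, with all genes tested in grey. The 4 cell-cycle lists are at their lowest on day 15. The list with CDK inhibitors, D cyclins and MYC and the FOXO list are at their highest there. On day 20 the cell-cycle lists stand at 1.34 to 1.80 and the other 2 lists at -0.68 and -0.92.

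The promoters of the cell-cycle genes are shown because these genes moved together and because replication and mitotic genes are known to carry different elements. RefSeq promoters (GRCh38.p14, 250 bases before to 50 after the annotated start) were matched for 18 of 22 licensing, 26 of 30 fork, 16 of 20 cyclin and 44 of 50 mitotic genes. The words searched on both strands were TTTGAA and TTCGAA (the cell cycle homology region, CHR, which recruits MuvB), CCAAT (the box bound by NF-Y), and TTTCCCGC, TTTCGCGC, TTTGCCGC and TTTGGCGC (E2F), with overlapping matches allowed. In the lines below, the 250 bases before the start of a pair of mitotic and a pair of E2F-type genes are in lower case with the matches in capitals, read 5′ to 3′ on the strand of the gene. PLK1 (chr16:23678639-23678888 on the plus strand) and DLGAP5 (chr14:55191586-55191835 on the minus strand) hold CHR words and CCAAT boxes, and E2F1 (chr20:33686386-33686635 on the minus strand) and PCNA (chr20:5126623-5126872 on the minus strand) hold E2F words and CCAAT boxes.
PLK1: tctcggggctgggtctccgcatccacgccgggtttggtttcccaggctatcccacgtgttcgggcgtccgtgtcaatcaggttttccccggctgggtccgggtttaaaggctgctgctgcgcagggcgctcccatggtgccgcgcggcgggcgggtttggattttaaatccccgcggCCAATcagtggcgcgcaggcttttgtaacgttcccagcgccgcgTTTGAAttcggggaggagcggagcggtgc
DLGAP5: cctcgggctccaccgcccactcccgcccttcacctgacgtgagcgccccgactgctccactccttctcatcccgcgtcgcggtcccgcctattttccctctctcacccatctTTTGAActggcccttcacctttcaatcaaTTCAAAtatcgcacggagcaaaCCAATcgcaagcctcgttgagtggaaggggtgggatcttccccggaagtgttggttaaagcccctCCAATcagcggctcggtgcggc
E2F1: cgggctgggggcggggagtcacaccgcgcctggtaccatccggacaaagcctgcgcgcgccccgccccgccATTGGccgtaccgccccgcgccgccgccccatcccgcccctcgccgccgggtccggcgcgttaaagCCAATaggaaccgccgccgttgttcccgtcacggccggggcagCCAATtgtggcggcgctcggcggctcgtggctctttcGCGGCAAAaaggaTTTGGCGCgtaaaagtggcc
PCNA: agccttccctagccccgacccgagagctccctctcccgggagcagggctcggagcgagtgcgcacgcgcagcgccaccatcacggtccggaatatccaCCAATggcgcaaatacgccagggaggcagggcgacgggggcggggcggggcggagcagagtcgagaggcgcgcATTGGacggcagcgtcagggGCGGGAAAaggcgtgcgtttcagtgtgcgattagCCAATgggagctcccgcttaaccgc

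In the PLK1 stretch 1 CHR word and 1 CCAAT box are in capitals, in DLGAP5 2 and 2, in E2F1 2 E2F words and 3 CCAAT boxes, and in PCNA 1 and 3. The 4 genes rose by 1.44, 2.20, 2.85 and 1.15 on the log2 scale from d15 to d20, in that order. A CHR word was in 36 of the 44 mitotic promoters (81.8%), against 4539 of 27305 promoters of the same length in the RefSeq table (16.6%). It was in 2 of 18 licensing promoters (11.1%), 1 of 26 fork promoters (3.85%) and 4 of 16 cyclin promoters (25%). An E2F word was in 10 of 18 licensing promoters (55.6%), 10 of 26 fork promoters (38.5%), 5 of 16 cyclin promoters (31.2%) and 4 of 44 mitotic promoters (9.09%), against 3.33% of all promoters. CCAAT was in 75% of the mitotic, 61.1% of the licensing, 42.3% of the fork and 56.2% of the cyclin promoters, and in 35.7% of all promoters. A CHR word and a CCAAT box stood together in 61.4% of the mitotic promoters and in 6.58% of all promoters. The share of all promoters includes genes that were not tested here, and no share over the tested genes alone is given. A match describes the letters and is not a measured binding site. Since 121 of the 122 listed genes rose, these shares describe the lists and cannot bear on the change from d15 to d20. CCNA2, CCNB1, MYBL2 and RRM2 were among the genes that rose with no CHR or E2F word in the stretch searched. Whether the motifs have a part in the rise was not tested.

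**Figure D3:**
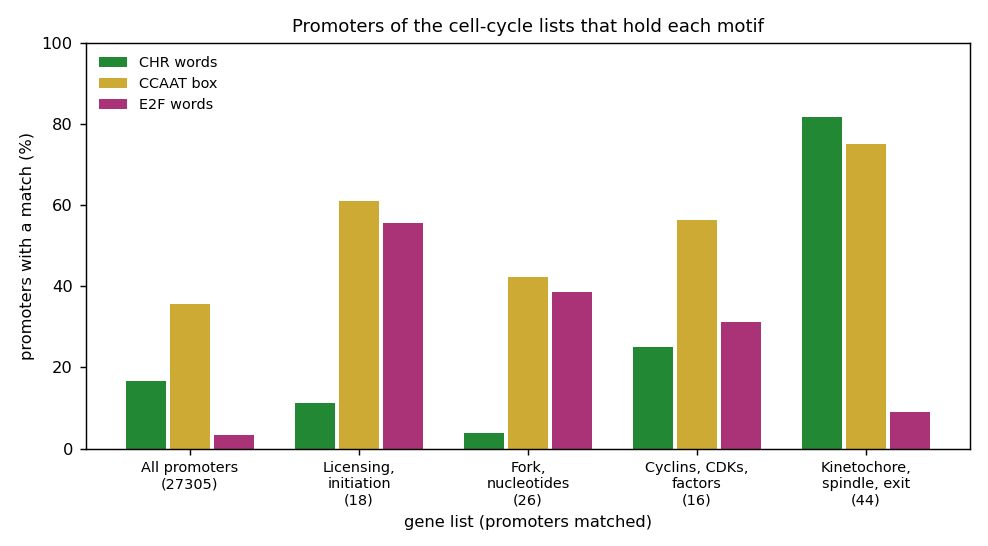
Share of promoters (percent) that hold a CHR word (green), a CCAAT box (yellow) or an E2F word (purple), for all 27305 promoters and for the promoters matched in each cell-cycle list. CHR words are most frequent in the mitotic list (81.8%) and E2F words in the licensing list (55.6%).

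Genes of ribosome biogenesis, cholesterol synthesis and glycolysis were mostly higher on d20. Of 25 ribosome biogenesis genes 21 were higher and 1 lower, 4 of the former by at least 2-fold (median 0.67). NOP56, a core protein of box C/D snoRNPs, was at 1315, 1371 and 1362 on d15 and 2870.4, 3044 and 2968 on d20 (log2 fold change 1.13 ± 0.036 (SE)). NIP7 and GAR1, which act in pre-rRNA processing and pseudouridylation, rose by 1.05 and 1.05 on the log2 scale. NPM1, an abundant nucleolar chaperone, was the 1 gene lower (-0.08), its libraries overlapped, and the call was lost without d15 library 2 or without d20 library 1. All 25 were lower on d20 than on d10 (median log2 difference -0.53).

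Of 21 cholesterol synthesis genes 19 were higher, 3 by at least 2-fold, and 1 lower (median 0.54). FDPS, which makes farnesyl pyrophosphate, was at 2311, 2246 and 2261 on d15 and 8647, 8757 and 8736 on d20 (3.83-fold, log2 fold change 1.94 ± 0.029 (SE), limma, adjusted p = 2.99e-32). HMGCS1 and IDI1, earlier steps of the mevalonate pathway, rose by 1.47 and 1.27 on the log2 scale. SREBF2, the transcription factor of the pathway, was the 1 lower gene (-0.29). The same list was lower on d20 than on d10 for 20 of its 21 genes (median -0.27).

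Of 30 glycolysis and hypoxia genes 22 were higher and 6 lower (median 0.46), and 6 rose by at least 2-fold. PGK1, a glycolytic kinase, was at 4588, 4483 and 4421 on d15 and 12627, 12496 and 12705 on d20 (log2 fold change 1.49 ± 0.027 (SE)). LDHA, which makes lactate, was at 8405, 8753 and 8604 on d15 and 22598, 23004 and 23339 on d20 (log2 fold change 1.42 ± 0.026 (SE)). Of the hypoxia targets outside glycolysis CA9, a carbonic anhydrase, rose by 1.44, while ADM (-0.94) and NDRG1 (-0.64) fell, as did the glucose transporter SLC2A1 (-0.39).

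Lysosome genes, which carry out degradation, were lower in 21 of 36 cases and higher in 10 (58.3% and 27.8%, median -0.20). Over all genes tested 39.1% were lower and 39.2% higher. GLA, a galactosidase, rose by 1.23 and the cathepsin CTSF fell by 1.00, the 1 change of at least 2-fold in each direction. The ATF4 and amino acid response list divided, with 9 of 26 higher and 12 lower (34.6% and 46.2%, median -0.01). CHAC1, which degrades glutathione, rose by 1.19, STC2 by 1.01 and the cystine carrier SLC7A11 by 0.97, while DDIT3, the stress factor CHOP, fell by 1.67.

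**Figure D4:**
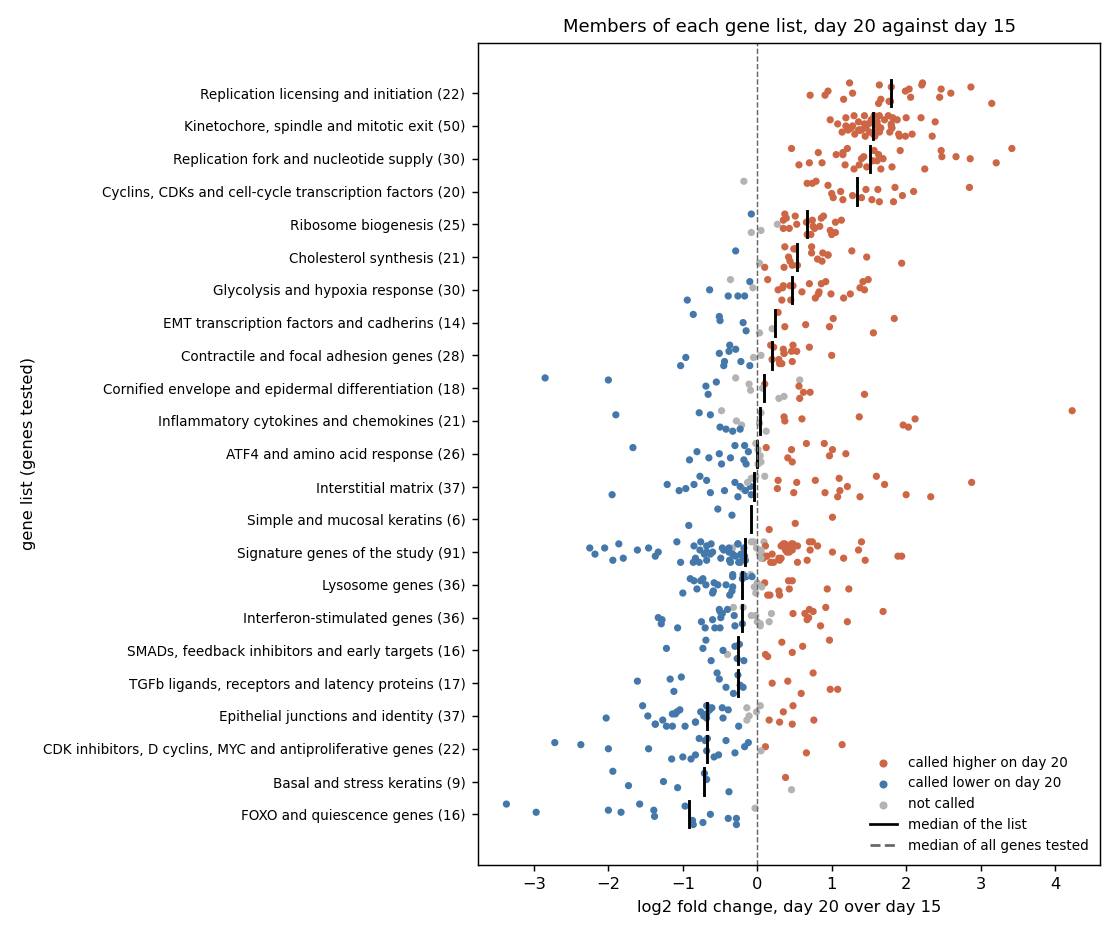
Log2 fold change of day 20 over day 15 for each tested member of 23 gene lists, coloured by its call, with a black bar at the list's median and a dashed line at the median of all genes (-0.004). The 4 cell-cycle lists lie to the right with medians of 1.34 to 1.80. To the left, with medians of -0.92 to -0.68, lie FOXO genes, basal and stress keratins and epithelial junction genes. The list with CDK inhibitors, D cyclins and MYC lies there too.

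Epithelial genes were mostly lower on d20 than on d15. Of 37 junction and identity genes tested (39 in the list) 26 were lower, 12 by at least 2-fold, and 6 higher (median -0.68). DSG3, a desmosomal cadherin of basal cells, was at 10555, 10394 and 10274 on d15 and 2445, 2570.1 and 2617 on d20 (4.09-fold lower, log2 fold change -2.03 ± 0.03 (SE), limma, adjusted p = 2.41e-32). CDH1, the epithelial cadherin, was at 6468, 6395 and 6149 on d15 and 2838, 2910.0 and 2857 on d20 (log2 fold change -1.14 ± 0.03 (SE)). ESRP1, an epithelial splicing factor, was at 4319, 4092 and 4261 on d15 and 1942, 1931 and 2041 on d20 (log2 fold change -1.10 ± 0.033 (SE)). For these 3 genes every d20 library was below every d15 library. GRHL2, a factor that maintains epithelial identity, fell by 1.47, MARVELD2, a tricellular junction protein, by 1.54, MUC1 by 1.14 and occludin (OCLN) by 0.83 on the log2 scale.

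ITGA6 (0.47), CLDN4 (0.48) and ESRP2 (0.30) were among the 6 higher ones. OVOL1 (-0.14) and OVOL2 (-0.11), which oppose EMT, were not called, their days overlapped, and with quantile normalization both values turned positive (0.02 and 0.07). Against untreated cells 28 of the 37 genes were lower on d20 and 7 higher (median -1.02). Against d10, 19 were lower and 10 higher (median -0.09). The median log2 difference of the list from d15 was -0.21 on d0, -0.05 on d1, 0.14 on d4, 0.13 on d7, -0.71 on d10 and -0.68 on d20. The list as a whole was thus about as low on d10 as on d20.

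Keratins of basal and stressed epithelium fell in 7 of 9 genes, 4 by at least 2-fold, with 1 higher (median -0.71). KRT17, a keratin of wounded and hyperproliferative epithelium, was at 186759, 181902 and 191369 on d15 and 50468, 47899 and 47786 on d20 (3.83-fold lower, log2 fold change -1.94 ± 0.027 (SE), limma, adjusted p = 6.36e-33). KRT16 was at 6363, 6166 and 6319.9 on d15 and 1899, 1853 and 1929 on d20 (log2 fold change -1.73 ± 0.031 (SE)). KRT5 and KRT14, the pair that forms the filaments of basal cells, had smaller log2 falls, of 0.68 (178527, 173499 and 175401 on d15 and 108717, 109661 and 109769 on d20) and 0.38 (122899, 116002 and 118211 on d15 and 93009, 90783 and 91298 on d20). In each of the 4 genes the days did not overlap, although reads of near-identical keratins such as KRT14, KRT16 and KRT17 can be shared. The KRT17 values on d20 were above those of d10 (mean 13305), and KRT15 rose by 0.38, a call lost with all 21 libraries in the fit.

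Among 6 simple and mucosal keratins tested (10 in the list) 3 were higher and 3 lower (50% each, median -0.09). KRT7 rose by 0.51 and KRT80 by 1.01, while KRT8 fell by 0.53 and KRT81 by 0.92 on the log2 scale. Of 32 cornified envelope genes 18 passed the filter, 6 were higher and 5 lower (median 0.09). Those are 33.3% and 27.8%, against 39.2% and 39.1% of all genes. IVL, a precursor of the cornified envelope, was at 234, 241 and 240.3 on d15 and 675, 635 and 640.4 on d20 (log2 fold change 1.44 ± 0.063 (SE)). ZNF750, a factor of epidermal differentiation, went the other way at 62.2, 57.0 and 67.3 on d15 and 14.8, 14.7 and 14.7 on d20 (4-fold lower). SERPINB3 had 0 reads in 1 d20 library, so its log2 fold change of -2.85 rests on few reads.

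Mesenchymal genes did not move as a block. Of 14 EMT transcription factors and cadherins tested (16 in the list, with SNAI1 and PRRX1 below the filter) 7 were higher, 3 by at least 2-fold, and 5 lower (median 0.24). Those are 50% and 35.7%, against 39.2% and 39.1% of all genes. Against d10, 8 of the 14 were higher on d20 and 4 lower (median 0.17), and against d0 13 were higher and 1 lower (median 2.62). CDH2, the neural cadherin gained in EMT, was at 216, 215 and 221 on d15 and 797, 798 and 751 on d20 (3.58-fold, log2 fold change 1.84 ± 0.062 (SE), limma, adjusted p = 7.12e-23). CDH11, a mesenchymal cadherin, was at 768, 752 and 749 on d15 and 2184, 2259.6 and 2269.8 on d20 (log2 fold change 1.56 ± 0.039 (SE)). ZEB1, a repressor of CDH1, was at 227, 223 and 189.6 on d15 and 423, 435 and 442 on d20 (log2 fold change 1.02 ± 0.077 (SE)). These 3 genes were higher in every d20 library. TWIST2 rose by 0.65 and ZEB2 by 0.37, the latter no longer called with all 21 libraries in the fit, whereas TWIST1 fell by 0.51, RUNX2 by 0.86, FOXC1 by 0.50 and SNAI2 by 0.19. VIM, the intermediate filament of mesenchymal cells, was at 63569, 61705 and 62524 on d15 and 65859.7, 61979 and 63607 on d20, with overlapping days (log2 fold change 0.03 ± 0.026 (SE), limma, adjusted p = 0.332), and under quantile normalization its log2 fold change was 0.27 and called, and with equal totals it was -0.01. FN1, the matrix protein fibronectin, rose by 0.28 in the authors' scaling but was not called with quantile normalization. Of 10 mesenchymal markers 7 passed the filter, with 5 higher and 1 lower. Their sum, mostly FN1, was 505000 to 534800 on d15 and 629100 to 649100 on d20, and the fibroblast genes DCN and LUM were at or near 0.

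The interstitial matrix divided evenly, with 16 of 37 tested genes higher and 15 lower (42 in the list, median -0.05, and 0.07 with quantile normalization). Both shares, 43.2% and 40.5%, were near those of all genes (39.2% and 39.1%). At least 2-fold were 10 of the rises and 3 of the falls. Against d10, 30 of the 37 were higher on d20 and 3 lower (median 0.65), and against d0 33 were higher and 1 lower (median 1.95). The highest mean of the 7 days was on d15 for 15 of the 37 and on d20 for 12. COL8A1, a short-chain collagen, was at 176, 156 and 158 on d15 and 1166, 1205 and 1250.5 on d20 (7.34-fold, log2 fold change 2.88 ± 0.063 (SE), limma, adjusted p = 7.42e-28). COL6A3 (2.33) and COL5A3 (2.00), chains of a beaded and a fibrillar collagen, also rose. LOX, which crosslinks collagen and elastin, was at 12729, 12142 and 12104 on d15 and 3351, 3019 and 3221 on d20 (3.86-fold lower, log2 fold change -1.95 ± 0.032 (SE)). PCOLCE, an enhancer of procollagen processing, and P4HA2, a prolyl hydroxylase, fell by 1.21 and 1.05. Of 28 contractile and focal adhesion genes tested 15 were higher and 10 lower (53.6% and 35.7%, median 0.20). CYR61 and CTGF, targets of YAP and TGFβ, rose by 1.00 and 0.70, TLN1, which links integrins to actin, by 0.53, and ACTA2, smooth muscle actin, fell by 1.03 (1012, 988 and 1020.4 on d15 and 513, 485 and 476 on d20).

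**Figure D5:**
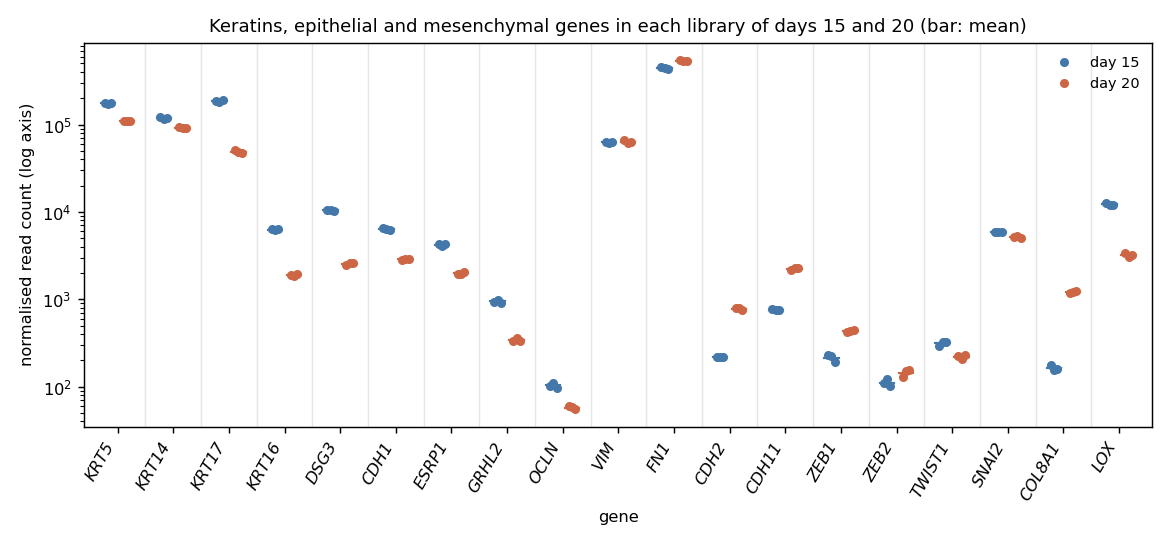
Normalised read count (log axis) of 19 genes in each library of day 15 (blue) and day 20 (orange), with short bars for the mean of 3 libraries. Keratins and epithelial genes from KRT5 to OCLN are lower in every day 20 library, the VIM libraries overlap, and CDH2, CDH11, ZEB1 and COL8A1 are higher while LOX is lower.

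The TGFβ pathway itself was mixed. Of 17 ligands, receptors and latency proteins tested (18 in the list) 6 were higher and 11 lower (35.3% and 64.7%, median -0.26). Over all genes the shares were 39.2% and 39.1%. TGFBR2, the receptor that binds the ligand, was at 1759, 1706 and 1739 on d15 and 2871, 2953 and 2944 on d20 (log2 fold change 0.75 ± 0.033 (SE)). INHBA, a chain of activin A, rose by 0.98, THBS1, which frees latent TGFβ, by 1.08, and the ligand TGFB2 by 0.59, whereas TGFB1 fell by 0.23, TGFB3 by 1.17, the co-receptor TGFBR3 by 1.61 and the latency protein LTBP3 by 1.12. Of 16 SMADs, feedback inhibitors and early targets tested (19 in the list) 6 were higher and 9 lower (37.5% and 56.2%, median -0.26). SMAD7, the inhibitor induced by the pathway, was at 686, 639 and 634 on d15 and 525, 543 and 521 on d20 (log2 fold change -0.30 ± 0.054 (SE)). The days did not overlap, and the d0 mean was 108. ID1 rose by 0.61 and its relative ID3 fell by 0.69, SMURF2 rose by 0.97 and JUNB fell by 1.22.

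Of 36 interferon-stimulated genes tested (40 in the list) 10 were higher and 17 lower (27.8% and 47.2%, median -0.20). Over all genes the shares were 39.2% and 39.1%. ISG20, an exonuclease, was at 113, 101.30 and 105 on d15 and 337, 358 and 344 on d20 (log2 fold change 1.69 ± 0.089 (SE)), and OAS3, which senses double-stranded RNA, rose by 1.21. MX1, a GTPase against viruses, fell by 1.28, and IFI44L and IFI27 by 1.33 and 1.29. Of 21 inflammatory cytokines and chemokines tested (28 in the list) 8 were higher and 7 lower (38.1% and 33.3%, median 0.03). At least 2-fold were 5 of the rises. CSF2, the cytokine GM-CSF, was at 6.12, 3.62 and 3.11 on d15 and 122.96, 80.0 and 88.1 on d20 (18.8-fold, log2 fold change 4.23 ± 0.267 (SE), limma, adjusted p = 1.47e-15), with as few as 3 reads in a d15 library. CSF3, or G-CSF, rose by 2.12 and the neutrophil attractant CXCL1 by 2.03, while the epithelial cytokine TSLP fell by 1.90 and IL11 by 0.63.

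The basal epithelial signature that the study defined in tumours had 100 genes in the table and 91 past the filter. Of these 36 were higher, 7 by at least 2-fold, and 46 lower, 12 by at least 2-fold (median -0.17). The share of higher genes was near that of all genes tested (39.2%), and so was the share that rose by at least 2-fold (7.58%). Falls were more frequent in the list than among all genes, where 39.1% were lower and 7.94% lower by at least 2-fold. ADAMTS1, a secreted metalloprotease, was at 193, 219 and 199.9 on d15 and 805, 744 and 799 on d20 (log2 fold change 1.94 ± 0.066 (SE)). TUBB6, a beta tubulin, was at 3033, 2892 and 3038 on d15 and 11413, 11008 and 10910.4 on d20 (log2 fold change 1.89 ± 0.029 (SE)). TRIM29, a basal cell protein, was at 7105, 6526 and 6875 on d15 and 1514, 1386 and 1395 on d20 (4.77-fold lower, log2 fold change -2.25 ± 0.036 (SE)). MT2A, a metallothionein, rose by 1.45, and CRYAB, a small heat shock protein, and SULF1, which edits heparan sulfate, fell by 2.18 and 2.05. Against d10, 50 of the 91 genes were higher on d20 and 27 lower (median 0.12). Against d0, 65 were higher and 20 lower (median 0.44, and 0.24 with equal totals). The highest mean of the 7 days was on d15 for 30 of the 91 and on d20 for 19. The study reports that nearly all of its signature genes rose during EMT in these cells.

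The 10 largest rises and falls among genes with a mean of at least 50 on either day, and no overlap between days, are described last. ANGPTL4, a secreted inhibitor of lipoprotein lipase, was at 62.2, 70.5 and 75.6 on d15 and 1503, 1359.8 and 1241 on d20 (19.4-fold, log2 fold change 4.28 ± 0.081 (SE), limma, adjusted p = 1.53e-29). After ANGPTL4 and CSF2 came MYH15 (4.01), FAM111B (3.95), NAV3 (3.93), SPP1 (3.92), HHIP (3.86), NRGN (3.66), TERT (3.61) and LOC100216001 (3.61). FAM111B, a protease linked to DNA replication, was at 35.7, 37.1 and 54.9 on d15 and 648, 651 and 686 on d20. SPP1 and HHIP had as few as 2 reads in a d15 library, so the size of their folds is loose.

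TERT, the catalytic subunit of telomerase, was at 1173, 1213 and 1219 on d15 and 15364, 14959.5 and 13911 on d20 (12.3-fold, log2 fold change 3.61 ± 0.033 (SE), limma, adjusted p = 1.02e-37). Its mean was 7063 on d0 and 19069 on d10. The d15 libraries were thus the lower ones against both of these days. HMLE cells carry TERT as a transgene, and its reads and those of the native gene cannot be told apart in this table.

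Among the falls EDN2, an endothelin peptide, had the largest fold and was at 90.8, 98.6 and 114 on d15 and 5.30, 1.05 and 4.90 on d20 (-4.58), with 1 read in the lowest d20 library. FOS, the immediate early factor, was at 2865, 2760.4 and 2568 on d15 and 158, 115 and 107 on d20 (21.7-fold lower, log2 fold change -4.44 ± 0.083 (SE), limma, adjusted p = 1.06e-29). SCNN1G, a subunit of the epithelial sodium channel, was at 248, 257 and 241 on d15 and 10.6, 13.7 and 6.85 on d20 (log2 fold change -4.50 ± 0.188 (SE)). KDR, a VEGF receptor, was at 273, 263 and 253 on d15 and 10.6, 9.47 and 20.6 on d20 (log2 fold change -4.26 ± 0.192 (SE)). That the days lay apart in these genes follows from the rule that picked them. KDR made up most of the sum of 6 endothelial markers on d15, which was 274.5 to 290.7 on d15 and 42.1 to 70.51 on d20, and CDH5 and CLDN5 were at or near 0. The other large falls were BEST2 (-4.17), PRODH (-3.97), which breaks down proline, VIPR1 (-3.92), DMGDH (-3.86) and USH1G (-3.77). Of the 10, FOS had the highest level on d15 and the fall with the smallest adjusted p.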

How the data were processed

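RNA-seq values of 21 HMLE libraries (7 timepoints, 3 each) were used from 1 table of gene symbols. The deposited signal in it, per library, is the read number of a gene divided by a size factor, made by the authors. The low values (up to 200 reads) of each library were whole multiples of 1 read within 0.1 read for 100% of genes, so reads were recovered. The submitters' processing notes name hg19, STAR 2.7 and Salmon 1.4 with no role, and the annotation and the normalization tool are not given in the sources used here. Columns name the day but carry no replicate number, and libraries are numbered by column order only.

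Genes with a mean of at least 10 over the 3 d15 and 3 d20 libraries were fitted by limma 3.58.1 (R 4.3.3, trended variance) on log2(value + 1), with Benjamini-Hochberg adjustment over 13370 genes and a threshold of 0.05. Fold changes are on this scale and understate those of low genes. The d20 libraries were set against d10 and d0 in fits of the same kind on the same genes. The code was tested on simulated data. Alternatives were edgeR 4.0.16 and DESeq2 1.42.0 on recovered reads, other scalings, a pseudocount of 10, no filter, all libraries in the fit, other fold minimums, and leaving out each library. The members and lists were chosen with earlier results of these data known. Named genes were a list of key genes, the 3 largest called rises and falls of each list, and the 10 largest in each direction among genes with a mean of at least 50 on d15 or d20 and no overlap between days. Some genes that this rule names are not reported here. Genes named beside these complete a range or a short count and were chosen after their values were seen. Reads of paralogs (keratins, histones, metallothioneins, tubulins) can be shared and their split is uncertain. Promoter sequences came from RefSeq (GRCh38.p14), and no hg19 coordinate was combined with them.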

Additional observations from a re-analysis of the deposited data

How the results depend on the processing

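No paired analysis was possible because column names show the day alone, with no number to match libraries between days. Over 64 counts and 770 alternative values, 709 were within 1.5 times the reported count and 61 were not. Without a minimum fold 5247 genes were higher and 5222 lower, and with 1.5-fold, chosen after seeing the data, 2321 and 2338. Leaving out 1 library at a time gave 996 to 1024 genes higher and 1040 to 1092 lower at 2-fold.

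A minimum of 2-fold left, of the higher genes, 1 of the list with CDK inhibitors, D cyclins and MYC. It then left 4 of ribosome biogenesis, 3 of cholesterol synthesis, 0 of basal keratins, 1 of simple keratins and 1 of cornified envelope. Next came 0 of epithelial junctions, 3 of EMT factors, 10 of matrix, 0 of contractile, 1 of TGFβ ligand and 0 of SMAD genes. Last were 2 of interferon, 5 of inflammatory, 1 of lysosome, 6 of glycolysis, 2 of ATF4 and 7 of signature genes. Of the lower genes the 2-fold minimum left 5, 0, 0, 4, 0, 2, 12, 0, 3, 1, 4, 1, 4, 1, 1, 0, 1 and 12 in the same order, and 7 of FOXO genes. These falls follow from the added threshold.

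With all 21 libraries in the fit, 0 basal keratins were higher and 0 ribosome biogenesis genes lower than on d15, 15 mitotic genes were higher and 0 lower than on d10, and 3 cyclin and 8 mitotic genes were higher and 3 mitotic genes lower than on d0. With libraries rescaled to the same total, 2 ribosome biogenesis genes were lower than on d15, and 4 fork, 1 cyclin and 1 mitotic genes were higher and 34 mitotic genes lower than on d0. With quantile normalization, 2 basal keratins were higher and 2 ribosome biogenesis genes lower than on d15, 1 mitotic gene was lower than on d10, and 1 cyclin and 6 mitotic genes were higher and 30 mitotic genes lower than on d0. Leaving out 1 library gave 0 to 1 ribosome biogenesis genes lower, 0 without d15 library 2 or d20 library 1. The cause was not tested. Among 172 named genes 13 values lost their call and 1 gained it. In 4 cases the sign turned, in genes not called on either side: VIM to -0.01 with equal totals, OVOL1 to 0.02 and OVOL2 to 0.07 with quantile normalization, and OVOL2 to 0.04 without d15 library 1, where leaving out each library in turn gave -0.35 to 0.04.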

Other observations

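Gene families outside the lists above were added after the table had been read, and are given as counts beside the shares of all genes (39.2% higher, 39.1% lower). Proteasome subunits were higher in 35 of 37 (15 by at least 2-fold, median log2 fold change 0.95), led by PSMD1 (2.02) and PSMD2 (1.92) of the regulatory particle. PSMD1 was at 1541, 1621 and 1557 on d15 and 6115, 6396 and 6620.5 on d20. The 2 that were lower, PSMB8 (-0.20) and PSMB9 (-0.40), are subunits of the immunoproteasome. Tubulins rose in 12 of 15 (median 1.61), as TUBB2C at 3557, 3494 and 3749 on d15 and 17504, 17718 and 17645 on d20. Nucleoporins rose in 17 of 18 (median 0.79), CCT chaperonin subunits in 8 of 9 (median 0.56), mitochondrial ribosomal proteins in 64 of 74 (median 0.47) and respiratory chain subunits in 58 of 70 (median 0.35).

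Cytosolic ribosomal proteins went the other way, with 68 of 80 lower and 6 higher (median -0.28). Of 71 clustered histone genes only 11 passed the filter, and 10 of these were lower and 1 higher (median -1.32). HIST1H2BD was at 324, 301 and 315 on d15 and 60.4, 57.9 and 56.8 on d20 and HIST1H2AC at 345, 327 and 324 on d15 and 74.2, 70.5 and 77.4 on d20. The cause was not tested. Of 443 ZNF genes 255 were lower and 59 higher (median -0.30), from -3.00 for ZNF467 to 1.93 for ZNF367. Of 6 metallothioneins tested 2 were higher, MT1L (1.63) and MT2A (1.45), and 2 lower, MT1X (-1.33) and MT1E (-0.75). Those are 33.3% each way, below the 39.2% and 39.1% of all genes, and MT1F and MT1G were not called.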
